A study of Mus musculus with 40 samples.

Results

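Insertions without a deletion, listed exactly at the Cas9 cut of target site 2 or of target site 9, were described in the DARLIN array of 1 mouse liver library. They were chosen by their listed position and kind: an insertion between bases 49 and 50 of the array (site 2) or between bases 238 and 239 (site 9), in an event with no deleted base. The rule took 2693 of the 42668 listed events, 1638 at site 2 and 1055 at site 9. They lay in 2636 of 12767 alleles (20.6%), which held 4347 of 32342 UMIs. The numbers of insertions per site are a description, since position and kind chose them.

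The series labels 40 liver samples from 5 mice, of which 1 was analysed here. It is titled as right inferior lobe, E15.5, from mouse YK184. A further sample shares that lobe and mark, making a group of 2, but was not used here. The labels name DARLIN arrays but give no genotype, sex, age, inducer or dose, and do not say whether the mark is a time of induction or of collection. RNA of the array at Col1a1 was reverse transcribed with a primer that carries a unique molecular identifier (UMI), amplified and sequenced, so UMIs count array transcripts and not cells. No other gene was measured, so the liver label was not checked against markers. Col1a1 (gene 12842), a collagen gene, lies on chromosome 11 in GRCm38.p6, from base 94936224 to base 94953042. Where in or near it the array sits is not given in the sources here.

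In DARLIN mice, the array read here, at Col1a1, holds 10 Cas9 target sites in a row and is used as a heritable barcode. Cas9 cuts a target near its end, and repair leaves a change that all descendants of the cell keep. In this mouse line Cas9 is fused with TdT, terminal deoxynucleotidyl transferase, which extends DNA ends without copying a template, so repaired cuts often carry added bases. Cuts at 2 sites can also remove everything between them. Sites 2 and 9 are the second site from either end of the array, so each has an outer neighbour (site 1 or site 10) and an inner neighbour (site 3 or site 8).

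With 1 library there are no replicates. Each 95% interval on a share is an exact binomial (Clopper-Pearson) interval over alleles, and each on a difference is a Newcombe interval. Each test is a two-sided Fisher's exact test over alleles, adjusted by Benjamini-Hochberg over the 8 comparisons of the sites. They treat listed alleles as independent draws, cover counting error only and describe this library. Alleles that inherited 1 insertion from a common ancestor cell are not independent, and how many did is unknown.

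The bases added at both cuts were mostly very short. At site 2 the commonest additions were G in 428 alleles, A in 359, GG in 177, T in 142 and GA in 109. At site 9 they were G in 559 alleles, C in 172, T in 95, GG in 77 and GA in 31. These 5 sequences made up 74.2% of alleles at site 2 (71.98 to 76.3%) and 88.5% at site 9 (86.5 to 90.4%). The exact positions list no addition starting with A at site 9 and none starting with C at site 2. In the same placement, described below, A came second at site 9, in 296 alleles. The 5 commonest sequences of each site then made up 68.8% at site 2 and 78.3% at site 9. At the other extreme stood 9 insertions of 12 or more bases, 5 at site 2 and 4 at site 9, and none had 8 to 11 bases. They are printed here because they are long enough to be compared with each other base by base. They were picked after their values were seen. Capitals mark a stretch of 9 bases that 5 of the 9 share; it was chosen from these same sequences.
Site 2, 31 bases, 1 UMI: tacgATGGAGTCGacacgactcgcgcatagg
Site 2, 28 bases, 1 UMI: gctATGGAGTCGatagtatgcgtacacg
Site 2, 26 bases, 1 UMI: gctATGGAGTCGatagtatgcgtaca
Site 2, 18 bases, 1 UMI: gatagtatgcgtacacgg
Site 2, 16 bases, 1 UMI: gcgctcgcgactccat
Site 9, 29 bases, 1 UMI: gttcgacgagcgcgctctcgctcccatcg
Site 9, 28 bases, 2 UMIs: gatATGGAGTCGatacgtagcacgcaga
Site 9, 19 bases, 1 UMI: tatatggagtatatgacgt
Site 9, 14 bases, 2 UMIs: tcgatATGGAGTCG

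The insertions of 28 and 26 bases at site 2 shared 26 bases and lay in alleles whose other 5 events were identical. The insertion of 18 bases shared 17 bases with the longer of them. Across the sites, the insertion of 28 bases at site 2 and that of 28 bases at site 9 shared 13 bases. The reverse complement of the marked stretch was present in 1 of the 9. Over the 1353 inserted stretches of 12 or more bases of the whole library, with or without a deletion, the marked stretch was present in 14 (1.03%) and its reverse complement in 472. They were not compared with the array, whose unedited sequence is not in the sources here.

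Where an insertion was listed depended on its first base. No insertion at the cut of site 2 started with C, and none at the cut of site 9 started with A. The listed substitutions show which base follows each cut. At base 50 all 13 start from C (C50A in 6 alleles, C50G in 5, C50T in 2), and at base 239 all 17 start from A (A239G in 15, A239C in 1, A239T in 1). Added bases that start with the base after the cut give the same array when they are written 1 position further right, ending in that base. Such entries were in the list. Of 162 insertions between bases 50 and 51, all 162 ended in C, and 133 of them were a lone C. Of 493 insertions between bases 239 and 240, all 493 ended in A, and 296 were a lone A.

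The exact positions thus leave out additions that start with C at site 2 and with A at site 9. On the other side of the cuts, 3 insertions lay between bases 48 and 49 and 70 between bases 237 and 238. Among the 10 cuts, site 9 alone has A as the next base in the listed substitutions, and the other 9 have C. To set the sites side by side on equal terms, each entry 1 position to the right that ended in the base after the cut was counted at the cut and read from there. This was done after seeing the data and is called the same placement below. It gave 1800 alleles at site 2 and 1548 at site 9, 4262 at site 1 and 5428 at site 10. At the inner sites it gave 493 alleles at site 3, 462 at site 4, 188 at site 5, 332 at site 6, 346 at site 7 and 624 at site 8. Sites 2 and 9 came after the outermost sites and above every site between them.

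Site 9 received shorter additions than site 2. A single base was added in 826 of 1055 alleles at site 9 (78.3%, 75.7 to 80.7%) and in 929 of 1638 at site 2 (56.7%, 54.3 to 59.1%), a difference of -21.6 percentage points, site 2 minus site 9 (-24.97 to -18.1; Fisher's exact test, adjusted p = 2.11e-30). In the same placement the shares were 72.5% and 59.0%, a difference of -13.5 points (-16.6 to -10.3; Fisher's exact test, adjusted p = 2.44e-15). The difference was therefore present with either way of listing, but smaller when A at site 9 and C at site 2 were counted. Additions of 2 bases made up 32.8% at site 2 (30.6 to 35.2%) and 17.3% at site 9 (15.02 to 19.7%), and those of 3 bases 6.65% and 2.84%. The mean at the exact positions was 1.65 added bases at site 2 (SD 1.52, n = 1638 alleles) and 1.36 at site 9 (SD 1.49, n = 1055 alleles), with a median of 1 at both. In the same placement the means were 1.62 and 1.42.

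Additions of 4 or more bases were rare at both cuts. They numbered 62 at site 2 (3.79%, 2.91 to 4.83%) and 17 at site 9 (1.61%, 0.941 to 2.57%; Fisher's exact test, adjusted p = 0.0019). In the same placement they were 3.50% and 2.07% (Fisher's exact test, adjusted p = 0.0255). Among alleles with at least 2 UMIs the shares were 2.55% of 470 and 2.37% of 295, which did not pass the test (Fisher's exact test, adjusted p = 1).

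Listed single-base shares were lower at the outer neighbours than at either site, and varied at the inner ones. Under the same placement a single base was added in 52.6% of insertions at site 1 (51.1 to 54.1%) and in 36.6% at site 10 (35.3 to 37.9%). The share was 49.9% at site 3, 65.6% at site 4, 75.5% at site 5, 74.1% at site 6, 72.3% at site 7 and 65.7% at site 8. Site 9 thus lay within the intervals of sites 5, 6 and 7 (68.7 to 81.5%, 69.03 to 78.7% and 67.2 to 76.9%) and far from site 10; site 2 lay between sites 1 and 4. These differences from other sites were not tested.

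In base composition the exact positions and the same placement differed. At the exact positions, additions made of A and G only (purines, the larger of the DNA bases) were 81.9% of alleles at site 2 (79.98 to 83.8%) and 65.6% at site 9 (62.6 to 68.5%), a difference of 16.3 points (12.9 to 19.8; Fisher's exact test, adjusted p = 6.60e-21). In the same placement the shares were 74.6% and 75.3%, a difference of -0.70 points (-3.64 to 2.25; Fisher's exact test, adjusted p = 0.66). The first base missing from the exact positions is a purine at site 9 and a pyrimidine at site 2. With first bases of every kind counted at both cuts, the interval held no difference larger than 3.64 points.

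G was the commonest single base at both cuts and stood higher at site 9. At the exact positions it was 428 of 929 single bases at site 2 (46.1%, 42.8 to 49.3%) and 559 of 826 at site 9 (67.7%, 64.4 to 70.9%; Fisher's exact test, adjusted p = 1.65e-19). Under the same placement it was 40.3% of 1062 and 49.8% of 1122, a difference of -9.52 points (-13.6 to -5.35; Fisher's exact test, adjusted p = 3.71e-05). With at least 2 UMIs as well, it was -8.44 points and did not pass (Fisher's exact test, adjusted p = 0.0572). The other single bases were then A in 33.8% at site 2 and 26.4% at site 9, T in 13.4% and 8.47%, and C in 12.5% and 15.3%. The base before the cut is A at site 2 by 1 listed substitution (A49C) and G at site 9 by 10 (G238A in 5 alleles, G238C in 3, G238T in 2). A lone G at site 9 and a lone A at site 2 therefore repeat the base before the cut, and cannot be told from the same base added 1 position to the left. Between bases 237 and 238, where such a G could not be listed, A was added alone in 22 alleles, T in 16 and C in 8; between bases 48 and 49 T alone was added in 2. The part of this in the G share was not tested.

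Set beside the other cuts in the same placement, site 9 had the highest share of G among single bases and the lowest share of A. Its interval for G (46.9 to 52.8%) lay above those of the other 9 sites, where G ran from 27.8% at site 8 to 40.3% at sites 2 and 4. Sites 5, 7 and 8 also have G before the cut, by 1, 2 and 1 listed substitutions, and there A exceeded G, with 42.3%, 46.0% and 47.8% A. Site 2 had nearly the shares of its outer neighbour. At site 1 the single base was G in 39.1%, A in 34.7%, T in 13.7% and C in 12.5%. These comparisons across 10 sites are descriptions and were not tested.

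In additions of 2 bases, the intervals of the sites were apart for G and A as the first base and overlapped for them as the second. The first base, in the same placement, was G in 56.1% at site 2 (51.9 to 60.3%) and in 37.1% at site 9 (31.9 to 42.4%), and A in 33.7% (29.8 to 37.8%) and 46.5% (41.1 to 51.9%). The second base was G in 53.9% (49.7 to 58.1%) and 57.4% (51.9 to 62.7%), and A in 31.4% and 28.2%. After a first A the next base was G in 55.9% of 188 at site 2 and in 57.0% of 158 at site 9, and after a first G it was again G in 56.5% of 313 and 61.1% of 126. G was thus the commonest second base as listed after A or G at both cuts. The base before the cut is G at site 9. A pair there that ends in G cannot be told from 1 that starts with G, placed 1 position to the left. At site 2, where that base is A, the same holds for pairs ending in A. At site 9 the commonest first base was G in single additions and A in additions of 2, where its interval overlapped that of G. None of this was tested.

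Longer additions mostly ended in A. Of additions of 3 bases in the same placement, 65.8% of 117 at site 2 (56.5 to 74.3%) and 57.4% of 54 at site 9 (43.2 to 70.8%) had A as the third base. Of those of 4 to 7 bases, 48 of 58 at site 2 (82.8%, 70.6 to 91.4%) and 20 of 27 at site 9 (74.1%, 53.7 to 88.9%) ended in A. A pattern of G or GG followed by A alone, such as GGA or, longer, GGAAA, made up 50 of the 117 additions of 3 bases and 24 of the 58 of 4 to 7 bases at site 2. At site 9 it made up 12 of 54 and 6 of 27. Additions of 4 to 7 bases made of A and G only were 70.7% and 74.1%.  The base before the cut of site 2 is A by 1 listed substitution. An addition there that ends in A cannot be told from 1 that starts with A, placed 1 position to the left. The part of this in these shares was not tested. The pattern was picked after the sequences had been read and was not tested.

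The same few additions recurred over and over. At the exact positions site 2 had 76 distinct inserted sequences, 34 of them in 1 allele, and site 9 had 42, of which 19 were in 1 allele. Counted by their frequencies, as the exponential of the Shannon entropy, these equal 12.02 equally common sequences at site 2 and 5.77 at site 9. With the same placement the numbers were 87 distinct and 14.02 effective at site 2, and 61 and 9.52 at site 9. Drawing 1548 alleles at site 2, as many as site 9 has, would leave 81.5 distinct sequences on average. Site 2 therefore kept more distinct additions than site 9 at equal numbers. The outermost cuts had effective numbers of 18.3 at site 1 and 25.9 at site 10.

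Short additions used all sequences there are, and longer ones a small part. With the same placement all 4 single bases and all 16 pairs of bases were seen at both cuts. Of the 64 sequences of 3 bases, 26 were seen at site 2 and 19 at site 9, and of the 256 of 4 bases, 21 and 8. At the exact positions the lists of both sites shared 23 sequences, carried by 61.5% of alleles at site 2 and 79.1% at site 9. Under the same placement they shared 42, which are 48.3% of the list of site 2 and 68.9% of that of site 9. These shared sequences were carried by 96.5% of alleles at site 2 and 98.6% at site 9. How many additions had a like at the other cut thus depended on the placement.

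A single sequence of 5 or more bases recurred in 3 or more alleles at 1 site: GGAAA at site 2, in 4 alleles, and it was also found in 1 allele at site 9. Where an allele had 2 or more UMIs, the longest additions at site 2 were AGAATA (3 UMIs) and GAAAAA (2 UMIs), each of 6 bases. Next came GGAAA and TAAAA, with 5 bases and 2 UMIs each. At site 9 they were the insertions of 28 and 14 bases printed above, followed by GGAAA and TCTCG of 5 bases in alleles of 2 UMIs, TCTCG in 2 alleles. At the exact positions, the insertions of 12 or more bases at site 2 were thus each backed by 1 transcript, and those at site 9 by 1 or 2. The same placement adds 1 of 16 bases at site 9, agtcgatacggagtcg, in an allele of 4 UMIs; it does not hold the 9 bases marked above.

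The remaining events of an allele made most of these alleles distinct. Setting aside the insertion at site 2, the 1638 alleles had 1401 different combinations of other events. The 1055 alleles at site 9 had 976. In 122 combinations at site 2 (8.71%) and 53 at site 9 (5.43%) 2 or more different insertions were found with the same other events, in 359 and 132 alleles. The largest such family at site 2 had A between bases 22 and 23 and bases 77 to 265 replaced by GG. It was found with 11 different additions at site 2. G had 4 UMIs, A and AG had 3 each, and GAAAAAA and GGA had 1 each. The other 6 had 2 UMIs each, among them the longest, GAG and TAG, and the shorter GG. A second family had G between bases 22 and 23 and bases 77 to 265 replaced by G. It had 8 additions, led by A with 19 UMIs, G with 11 and GG with 8.

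At site 9 the largest families were smaller. Families were built from the exact positions, so none at site 9 could hold an addition starting with A, and none at site 2 one starting with C. Site 9 also had fewer alleles. The part of these limits in family size, and in the shares of combinations above, was not tested. With bases 23 to 211, up to the cut of site 8, replaced by A and G between bases 265 and 266, C was found in 3 UMIs, G and GA in 2 each, and GAA and GG in 1 each. With the same deletion and C between bases 266 and 267, G was found in 5 UMIs, GA and TT in 2 each, and GAAA and GG in 1 each. Within such a family the addition at site 2 or 9 is the only listed difference between alleles. Families and their members were chosen for size after they were counted.

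The outer neighbour was edited on its own in nearly every allele and was never lost in a joint deletion. Site 1 was altered alone in 1591 of 1638 alleles with an insertion at site 2 (97.1%, 96.2 to 97.9%) and was intact in 47. Site 10 was altered alone in 1040 of 1055 alleles with an insertion at site 9 (98.6%, 97.7 to 99.2%) and was intact in 15. The difference was -1.45 points (-2.53 to -0.30; Fisher's exact test, adjusted p = 0.0229). It did not pass the test among alleles with at least 2 UMIs (97.9% and 99.3%; Fisher's exact test, adjusted p = 0.167), or without the alleles that hold both insertions (97.2% and 98.5%, adjusted p = 0.0556). A deletion joining the outer neighbour to another site would take the cut of site 2 or 9 with it, so the 0 of 1638 and 0 of 1055 lost follow largely from how the members were chosen. Over all 12767 alleles, site 1 was lost in a joining deletion in 52.9% and site 10 in 44.6%. Where they were not, they were altered in 95.3% of 6015 alleles at site 1 (94.8 to 95.8%) and 96.03% of 7076 at site 10 (95.5 to 96.5%). The members are among these alleles. Other alleles kept site 2 or 9 out of a joining deletion but lacked an insertion at the exact position. Of these, 170 at site 2 and 575 at site 9 had an insertion listed beside the cut. Such entries can give the same array as 1 at the cut, so this group is not free of insertions, least of all at site 9. Among all of the other alleles, site 1 was altered alone in 90.5% of 1123 (88.6 to 92.1%) and site 10 in 93.6% of 1918 (92.4 to 94.6%). The members' intervals lay above these, and the differences were not tested.

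Most outer neighbours carried an insertion. Over all 12767 alleles, an insertion lay at the cut of site 1 in 30.4% and of site 10 in 39.1%. Those shares count alleles that lost the outer site in a joining deletion. An insertion lay exactly at the cut of site 1 in 1197 alleles of site 2 (73.1%, 70.9 to 75.2%) and at that of site 10 in 804 alleles of site 9 (76.2%, 73.5 to 78.7%; difference -3.13 points, -6.44 to 0.25; Fisher's exact test, adjusted p = 0.081). Counting all 4 cuts in the same placement, the shares were 80.9% and 82.8% (Fisher's exact test, adjusted p = 0.219). Among alleles with at least 2 UMIs the difference was -7.16 points (69.8% and 76.9%) and passed the test (Fisher's exact test, adjusted p = 0.0432); at 3 UMIs it was -8.13 points and did not. Over all alleles in which the outer site was not in a joining deletion, an insertion lay at its cut in 64.4% of 6015 at site 1 (63.2 to 65.6%) and 70.5% of 7076 at site 10 (69.4 to 71.5%). Some alleles kept site 2 or 9 out of a joining deletion but lacked an insertion at the exact position. In these the shares were 50.4% of 1123 (47.4 to 53.4%) and 69.8% of 1918 (67.7 to 71.9%), with alleles that had an insertion beside the cut of site 2 or 9 included. These differences from other alleles were not tested. A plain deletion at the outer neighbour was found in 221 alleles (13.5%) and 133 alleles (12.6%), a deletion with added bases in 33 and 23, and a substitution in 8 and 14. These deletions were small, with a median of 3 bases at both ends of the array. The commonest removed bases 23 to 25 at site 1 (77 alleles) and bases 266 to 268 at site 10 (35 alleles), the 3 bases that follow the cut in each case. Single bases G and A led among the insertions, G in 278 and A in 235 alleles at site 1, and in 123 and 117 at site 10.

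Additions at the outer neighbour were longer than those next to them, more so at site 10. In alleles with insertions at the exact positions of both cuts, site 1 had more added bases than site 2 in 33.2% and fewer in 26.7% of 1197 alleles. Site 10 had more than site 9 in 52.6% and fewer in 10.3% of 804. The means were 1.76 bases at site 1 beside 1.65 at site 2, and 1.91 at site 10 beside 1.33 at site 9. The length at 1 cut and at the next were set side by side, and the intervals overlapped. Where site 2 had 1 base, site 1 had 1 base in 49.05% (45.2 to 52.9%), and where site 2 had 2 or more, in 52.7% (48.3 to 57.1%). For site 9 and site 10 the shares were 36.1% (32.3 to 40.03%) and 35.9% (28.9 to 43.4%).

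At the exact positions, the identical sequence stood at both cuts in 145 of the 1197 alleles of sites 1 and 2 (12.1%) and in 81 of the 804 of sites 9 and 10 (10.1%). There, site 9 lists no addition starting with A, and sites 1, 2 and 10 list none starting with C. Additions starting with A or C thus could not match at sites 9 and 10, nor those starting with C at sites 1 and 2. The pairs below have the same limit, and none were counted in the same placement. Taken as pairs, the additions had more distinct forms than either alone. There were 327 distinct pairs at sites 1 and 2 and 212 at sites 9 and 10, and 205 and 138 of these were found in 1 allele. The commonest pair was A at site 2 with G at site 1, in 75 alleles (6.27%). At the other end it was G at site 9 with A at site 10, in 67 alleles (8.33%), followed by G at both in 66.

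Toward the middle of the array, most of these alleles had lost the inner neighbour, as had most alleles of the library, where site 3 was joined in 92.7% and site 8 in 89.9%. Only alleles whose site 2 or 9 was not itself in a joining deletion could be members. Among those without an insertion at the exact position, the inner neighbour was lost in 71.7% of 1123 at site 2 (68.9 to 74.3%). At site 9 it was lost in 62.5% of 1918 (60.3 to 64.7%). Both groups include alleles with an insertion listed beside the cut. Site 3 was lost in a joining deletion in 1207 of 1638 alleles with an insertion at site 2 (73.7%, 71.5 to 75.8%). Site 8 was lost in 719 of 1055 alleles with an insertion at site 9 (68.2%, 65.2 to 70.96%), a difference of 5.54 points (2.03 to 9.08; Fisher's exact test, adjusted p = 0.00351). The difference was larger among alleles with at least 2 UMIs, 12.4 points (84.9% and 72.5%; Fisher's exact test, adjusted p = 6.99e-05), and at 3 UMIs 10.8 points. The same placement gave 73.3% and 68.5% (Fisher's exact test, adjusted p = 0.00761). Among alleles with 3 events or fewer, nearly all had lost the inner neighbour, 98.3% and 96.2%, and the difference did not pass (Fisher's exact test, adjusted p = 0.0791). An insertion at the cut of the inner neighbour was found in 285 alleles (17.4%) at site 3 and 196 (18.6%) at site 8. An intact inner neighbour was found in 9 alleles (0.55%, 0.252 to 1.04%) and 23 alleles (2.18%, 1.39 to 3.25%).

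The joining deletions ran to the far end of the array in like shares from both sides. Of the 1207 that took site 3, 625 reached site 10 (51.8%, 48.9 to 54.6%), 222 ended at site 9 (18.4%) and 115 at site 5 (9.53%). Of the 719 that took site 8, 373 reached site 1 (51.9%, 48.2 to 55.6%), 117 began at site 2 (16.3%) and 65 at site 6 (9.04%). The median joining deletion had 187 bases beside site 2 and 188 beside site 9, and 52.5% and 52.4% of them carried added bases. The intervals of the sites overlapped for the shares that reached the far end and that carried added bases.

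The near ends of these deletions were less alike. Beside site 2, 84.2% began exactly at base 77, the base after the cut of site 3 (81.99 to 86.2%). Beside site 9, 51.3% ended exactly at base 211, the base before the cut of site 8 (47.6 to 55.03%), and 24.6% at base 210. Within 3 bases of these points lay 94.6% and 92.9%. How a deletion is placed among equal alternatives is not stated by the submitters, and the part of this in the exact ends was not tested.

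Both insertions were found together in 57 alleles with 64 UMIs, 3.48% of the alleles of site 2 and 5.40% of those of site 9. In 35 of these, 1 deletion joined sites 3 to 8 between them. In 35, not necessarily the same ones, sites 1 and 10 also carried an insertion at the cut. The same sequence stood at sites 2 and 9 in 9 alleles. The largest had 4 UMIs and 7 events, with G at both cuts, and 52 of the 57 had 1 UMI. These arrays had a median of 5 events.

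UMIs per allele were low and alike at both sites. Alleles with an insertion at site 2 had 1.64 UMIs on average (SD 1.63, n = 1638 alleles) and those at site 9 had 1.63 (SD 1.66, n = 1055 alleles), with a median of 1, an upper quartile of 2 and a 90th percentile of 3 at both. Alleles with 1 UMI were 71.3% at site 2 (69.05 to 73.5%) and 72.04% at site 9 (69.2 to 74.7%), a difference of -0.73 points (-4.18 to 2.78; Fisher's exact test, adjusted p = 0.694). With 5 or more UMIs there were 75 alleles at site 2 and 49 at site 9, and with 10 or more there were 10 and 8. Most insertions were thus read from 1 transcript, and differences within the bounds of that interval are not excluded.

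Of the 8 alleles with 14 or more UMIs, 4 at each site, 7 had 3 events and 1 had 5. The largest with an insertion at site 2 had 28 UMIs: A was added between bases 22 and 23, AG at site 2, and bases 77 to 268 were deleted. The next had 19 UMIs, with G between bases 22 and 23, A at site 2 and bases 77 to 265 replaced by G. One with 15 UMIs lacked bases 23 to 25, had AG at site 2 and lacked bases 77 to 268. The fourth, with 14 UMIs and 5 events, had GA at site 2. The deletion of bases 77 to 268 was thus present in 2 of these 4.

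At site 9 the largest allele had 23 UMIs: bases 23 to 214 were deleted, G was added at site 9 and T between bases 265 and 266. The next had the same deletion with GG at site 9 and GA between bases 265 and 266 (15 UMIs). Of 2 alleles with 14 UMIs, 1 lacked bases 23 to 210 with G at site 9 and GG between bases 265 and 266. The other lacked bases 23 to 212 with G at site 9 and A between bases 266 and 267. All 4 of these alleles lost the array from the cut of site 1 to within a few bases of the cut of site 8.

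Alleles with more events had fewer UMIs at both sites, from 3 to 6 events; this was not tested. At site 2 the mean was 2.10 UMIs with 3 events (n = 630 alleles), 1.46 with 4 (n = 489 alleles), 1.26 with 5 (n = 324 alleles) and 1.21 with 6 (n = 155 alleles). At site 9 it was 2.17 with 3 events (n = 383 alleles), 1.42 with 4 (n = 387 alleles), 1.22 with 5 (n = 189 alleles) and 1.13 with 6 (n = 76 alleles). In the 10131 alleles with neither insertion it was 1.97 with 3 events, 1.60 with 4, 1.43 with 5 and 1.49 with 6. The mean over all of those was 2.76 UMIs (SD 19.8, n = 10131 alleles), higher than at sites 2 and 9, while the median was 1 in all 3 groups. Of the alleles with neither insertion, 4.25% had a single event, with a mean of 14.6 UMIs. The largest of these held 1589 UMIs. No allele with an insertion at site 2 or 9 had a single event. With 3 events, alleles with 1 UMI were 57.1% at site 2, 59.3% at site 9 and 60.5% with neither insertion, and the intervals overlapped (53.2 to 61.05%, 54.2 to 64.2% and 58.9 to 62.1%).

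Fewer bases were lost from these arrays. Alleles with an insertion at site 2 or 9 had lost a median of 165 bases (quartiles 145 and 189 at site 2, 153 and 189 at site 9). Alleles with neither had lost 192 (quartiles 180 and 216). Keeping the cut of site 2 or 9 sets an upper limit on what can be deleted, so this difference follows in part from the choice of members. By length of the addition, the mean was 1.73 UMIs with 1 added base, 1.59 with 2 and 1.36 with 3 or more at site 2. At site 9 it was 1.66, 1.57 and 1.43. The SDs over alleles were 0.764 to 1.77 in these 6 classes, and the differences between their means were not tested.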

How the data were processed

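One liver library was analysed. The authors deposited 2 text lists, whose format is neither counts nor normalized values: edit events per allele, and 12-base UMIs per allele in the same order. Of builds, mm10 appears per the submitters' processing notes; allele caller and filters are not given in the sources here. UMIs per allele were counted here, and read depth is unknown. The array was read as 10 targets in units of 27 bases, with cuts after base 22 and every 27 bases on, from general knowledge; a site's window is 7 bases, 4 before the cut and 3 after it. A deletion touching 2 or more windows joined sites. A neighbour counted as lost when joined, otherwise as altered alone or intact. The members, the tests and the rule for named sequences were chosen with earlier results of these data known. That rule named the 5 commonest inserted sequences, the 3 longest among alleles with at least 2 UMIs, the 3 largest alleles per site, sequences of 5 or more bases found in 3 or more alleles, and all sites; further ones were named after their values were seen. Alternatives were minimums of 2 and 3 UMIs, leaving out alleles with both insertions, insertions within 1 base, distinct sequences, at most 3 events, UMI weights and leaving out the largest allele; those with the same placement were added after seeing the data. Counting was checked on constructed alleles. Python 3.11.15, numpy 2.4.6 and scipy 1.17.1 were used.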

Additional observations from a re-analysis of the deposited data

How the results depend on the processing

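No paired analysis was possible because 1 sample was analysed. Values are site 2 minus site 9 in percentage points, with adjusted p from Fisher's exact test. Of 78 alternative values, 48 kept the direction and side of the threshold, or stayed within the interval or count range. Additions of 4 or more bases differed by 0.18 at 2 UMIs, 1.15 at 3 UMIs, 1.14 within 1 base of the cut, 1.84 at 3 events or fewer, and 19.3 over distinct sequences, none past the threshold; with the same placement they gave -0.77 at 2 UMIs and 11.1 over distinct sequences. The A and G share differed by 8.55 at 3 UMIs, 0.14 within 1 base and 16.2 over distinct sequences (not past it), and by -0.70 with the same placement, -0.14 there at 2 UMIs and -1.90 there over distinct sequences. The share of 1-base insertions lost its call over distinct sequences (-3.20, and -1.96 with the same placement), where 3 or 4 single bases per site are all there can be. G among single bases was -26.6 weighted by UMIs and -8.44 with the same placement at 2 UMIs (exact test, p = 0.0572). The outer neighbour altered alone lost its call at 2 UMIs (-1.45), 3 UMIs (-1.47), without alleles holding both insertions (-1.28), at 3 events or fewer (-2.71) and with the same placement at 2 UMIs (-1.74). Insertions at the outer neighbour gained a call at 2 UMIs (-7.16, exact test, p = 0.0432). The inner neighbour lost its call at 3 events or fewer (2.14). Alleles with 1 UMI, never past the threshold, gave 0.84 within 1 base and 0.74 with the same placement. At 2 UMIs 470 alleles at site 2 and 295 at site 9 were left, with means of 3.24 and 3.26 UMIs. Apart from the settings whose construction shows it, the cause of these changes was not tested. Most alleles were read from 1 UMI and rare additions were few, which limits every comparison of them.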
